A study of Homo sapiens with 13 samples.

Results

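Oxidative phosphorylation (OXPHOS) genes encoded in the nucleus were followed in DLD-1 cells, a human colorectal adenocarcinoma line, after knockdown of SOX9 or Y14. The set was chosen by symbol: NDUF genes of the form NDUFA1, SDHA to SDHD, the UQCR genes, the ATP5 genes, CYC1 and CYCS. COX4 to COX8 genes were added where the symbol had a form such as COX5A or COX7A2. COX4I1, COX4I2, COX7A2L and NDUFAB1 fall outside these forms. Complexes were assigned by symbol too, with all NDUF genes in complex I, and NDUFA4 is counted there for that reason alone. It held 87 of the 23886 symbols listed. Of these 87, 76 had a mean of at least 10 normalised reads in the siSOX9 table, 77 of the 87 reached it with siY14 and 75 did so in both tables.

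The respiratory chain passes electrons from NADH through complex I, or from succinate through complex II, to complex III, cytochrome c and complex IV, which reduces oxygen. Complexes I, III and IV pump protons across the inner mitochondrial membrane, and complex V, the ATP synthase, uses the gradient to make ATP. Most subunits are encoded in the nucleus and a few in mitochondrial DNA, so their supply has to be matched across both genomes. Transcription factors such as NRF1 and GABP (an ETS factor) are known to act at many of the nuclear promoters.

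RNA was poly(A) selected and sequenced 72 h after transfection of siRNA at 50 nM. The siSOX9 table set 4 siSOX9 libraries against 3 libraries of control siRNA (siCtrl), all from experiments 1 and 2, with 1 library of each arm from experiment 2. The siY14 table set 4 siY14 libraries against 2 siCtrl libraries of experiment 3, and 2 siRNAs, numbered 9 and 10, gave 2 of the siY14 libraries each. SOX9 is a transcription factor of intestinal crypt cells, and Y14 belongs to the heart of the exon junction complex, deposited on mRNA at splicing. All samples are of 1 cell line, and the labels do not say that replicates came from separate cultures, so p-values measure the spread between these libraries, which may be technical.

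Each deposited table held the mean of each arm, its ratio and a DESeq p-value. Whole reads of single libraries were recovered from the arm means where exactly 1 set of whole reads within the search limits met the printed values. Except at low means, these limits kept each library within a set range of its arm mean or of other libraries, so wider gaps were not recoverable. The libraries are called a, b, c and d by depth within their arm because the tables do not name them. Recovery in both arms succeeded for 19 of the 76 OXPHOS genes with siSOX9 and 39 of the 77 with siY14, mostly those of lower level, while the siCtrl reads were recovered for 73 and 77. Estimated depth ran (in units of 1e6 reads) from 24.85 to 184.1 for siSOX9 and its controls and from 47.19 to 71.63 for siY14 and its controls. In the authors' deposited table, SOX9 went from a mean of 24468 in siCtrl to 9067 in siSOX9 (log2 ratio -1.43, adjusted p = 0.0001404 by DESeq). RBM8A, the gene that encodes Y14, is listed at 0 in both of the authors' deposited tables, so its knockdown could not be checked. Of 12 colon epithelial markers 11 had a mean of at least 10 in both tables, against 2 of 6 immune, 2 of 6 fibroblast and 1 of 5 endothelial markers.

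The sequences before the start of 5 genes are shown because NDUFS7, NDUFB7, NDUFS8 and NDUFA11 had high ratios in the siY14 table and CYCS a low one. ATP5D, also high, had no entry among the promoter sequences used. They are the 250 bases upstream of each start in RefSeq (GRCh38.p14), 5′ to 3′ on the gene's strand. Capitals mark a match to GCATGCGC (NRF1), CCGGAAG (ETS factors such as GABP) or AAGATGGC (YY1), on either strand.
NDUFS7 chr19:1383657-1383906 (plus strand): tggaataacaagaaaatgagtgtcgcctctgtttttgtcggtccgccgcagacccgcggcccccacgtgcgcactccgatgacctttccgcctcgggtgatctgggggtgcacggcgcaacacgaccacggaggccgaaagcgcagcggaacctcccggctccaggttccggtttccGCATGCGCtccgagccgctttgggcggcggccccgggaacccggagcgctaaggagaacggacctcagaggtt
NDUFB7 chr19:14572067-14572316 (minus strand): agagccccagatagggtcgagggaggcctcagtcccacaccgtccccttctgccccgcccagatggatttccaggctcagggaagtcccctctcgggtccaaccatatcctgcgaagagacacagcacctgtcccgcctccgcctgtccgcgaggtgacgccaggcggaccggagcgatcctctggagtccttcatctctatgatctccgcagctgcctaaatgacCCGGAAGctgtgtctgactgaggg
NDUFS8 chr11:68030431-68030680 (plus strand): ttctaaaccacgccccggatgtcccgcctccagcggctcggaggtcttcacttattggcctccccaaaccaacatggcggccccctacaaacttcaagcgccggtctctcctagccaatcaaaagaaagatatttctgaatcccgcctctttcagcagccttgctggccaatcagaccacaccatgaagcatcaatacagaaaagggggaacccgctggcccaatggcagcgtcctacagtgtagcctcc
NDUFA11 chr19:5903791-5904040 (minus strand): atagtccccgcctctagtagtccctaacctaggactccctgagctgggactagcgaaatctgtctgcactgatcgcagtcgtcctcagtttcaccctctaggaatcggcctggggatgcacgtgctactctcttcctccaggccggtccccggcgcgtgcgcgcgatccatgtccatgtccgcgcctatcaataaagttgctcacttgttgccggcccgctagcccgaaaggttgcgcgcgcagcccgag
CYCS chr7:25125261-25125510 (minus strand): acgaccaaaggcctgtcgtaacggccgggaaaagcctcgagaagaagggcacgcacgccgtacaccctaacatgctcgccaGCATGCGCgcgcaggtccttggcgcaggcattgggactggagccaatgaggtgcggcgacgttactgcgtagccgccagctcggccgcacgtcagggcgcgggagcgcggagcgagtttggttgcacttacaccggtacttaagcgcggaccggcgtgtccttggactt
NDUFS7 and CYCS each held the NRF1 letters, NDUFB7 held the ETS letters, and NDUFS8 and NDUFA11 held none of the 3. Whether the letters go with the ratios was not tested. Of the 65 OXPHOS genes with an entry, 13 (20%) held the NRF1 letters, against 2.81% of all 27305 promoters. The ETS letters were in 16 (24.6%), against 8.82%, and the YY1 letters in 1 (1.54%), against 1.37%. A match describes the letters and is no measure of binding.

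In siSOX9 cells none of the OXPHOS genes were called: 0 had a DESeq adjusted p of at most 0.05 in the authors' deposited table. Of all 18747 genes tested there, 3.47% were called, 1.19% higher and 2.27% lower. At an unadjusted p under 0.05 there were 4 of 76, 2 higher and 2 lower, against 13.6% of all genes whose mean reached 10. The ratios were small and mostly above 1. Of the 76, 60 were above siCtrl and 16 below, with a median log2 ratio of 0.12, against 52.1% above and a median of 0.01 over all 13649 genes. Leaning above siCtrl was seen in complexes I, III, IV and V and not in complex II.

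Complex I, which oxidises NADH, had a median log2 ratio of 0.12 over 36 genes, 29 of them above siCtrl. NDUFA2, an accessory subunit, was highest at 0.36 in the authors' deposited table. NDUFA2 had 2812, 1926 and 1692 normalised reads in siCtrl libraries a to c and 3779, 2440, 2268 and 2530 in siSOX9 libraries a to d, so the arms overlapped through siCtrl library a. Within depth it was higher in siSOX9, by 0.43 on the log2 scale between the deepest libraries and by 0.42 between the others.

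Complex II, succinate dehydrogenase, had 2 genes above and 2 below siCtrl. The authors' deposited table put the log2 ratio of SDHD at 0.17 and that of SDHC at -0.18, and both siSOX9 means fell within the range of the siCtrl libraries.

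Complex III held the lowest p-values of the set. UQCRQ, a small subunit, had 6595, 5955 and 6472 normalised reads in the siCtrl libraries and a siSOX9 mean of 4660 (log2 ratio -0.44, DESeq adjusted p = 0.2096 in the authors' deposited table). CYC1, the cytochrome c1 heme protein, had 11754, 13092 and 12179 in siCtrl and a mean of 9076 in siSOX9 (log2 ratio -0.44, DESeq adjusted p = 0.138 in the authors' deposited table). Both siSOX9 means were below every siCtrl library, and neither passed the threshold. Over the 9 genes of the complex the median log2 ratio was 0.10, since 6 lay above siCtrl, led by the core protein UQCRC2 at 0.30.

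Complex IV, cytochrome c oxidase, had 7 of 9 genes above siCtrl and a median log2 ratio of 0.15. COX7B was highest at 0.44, with 7037, 5577 and 6148 normalised reads in siCtrl and a siSOX9 mean of 8466 (DESeq adjusted p = 0.2457 in the authors' deposited table). COX6A1 was lowest at -0.02. In complex V, 15 of 17 genes were above siCtrl (median log2 ratio 0.12). Its extremes were low-level symbols that encode no subunit: the read-through gene ATP5J2-PTCD1 at 0.72 and the pseudogene ATP5EP2 at -0.81 in the authors' deposited table. The 2 below siCtrl were ATP5EP2 and ATP5SL (-0.27), and neither ATP5SL nor ATP5S encodes a subunit. Without such symbols the median log2 ratio was 0.16 over 13 genes. The ATP synthase catalytic beta subunit ATP5B, the highest of the set, had means of 57002 and 59088 (log2 ratio 0.05). CYCS, cytochrome c itself, had a siSOX9 mean of 14162, inside its siCtrl range of 9549 to 15408.

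**Figure D1:**
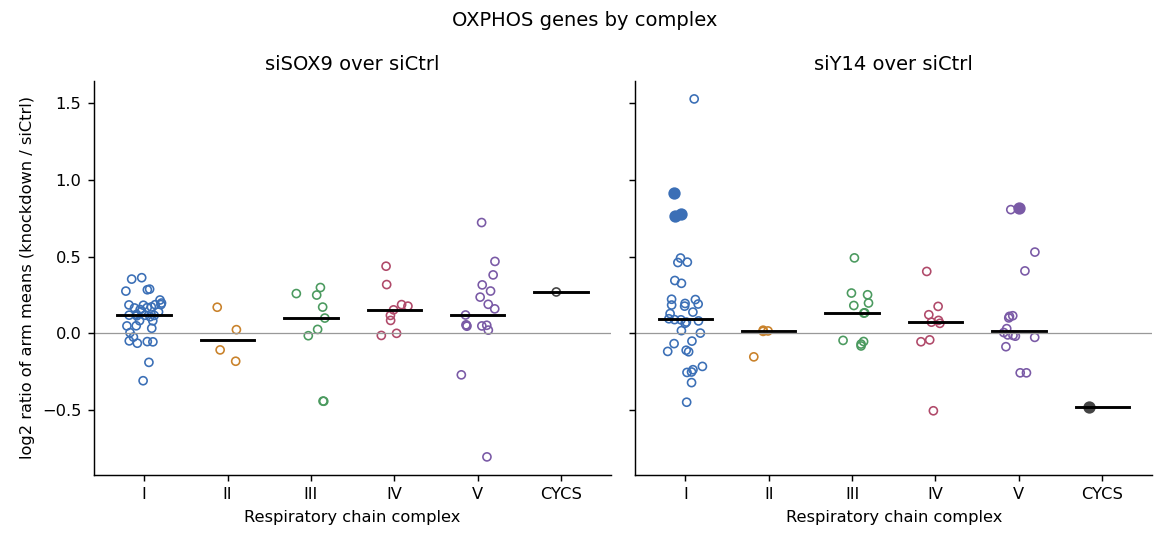
Each point is 1 OXPHOS gene whose mean reached 10, placed by complex (x axis) and by the log2 ratio of the arm means, knockdown over siCtrl (y axis); filled points are those called in the authors' deposited table (adjusted p of at most 0.05) and black lines are medians. No gene is filled for siSOX9, while 5 are for siY14, at 0.76 to 0.91 and, for CYCS, at -0.48.

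The libraries of the siSOX9 table did not spread evenly. The deepest siCtrl library, a, stood apart from b and c in the OXPHOS genes: the median size of the log2 gap between a and the mean of b and c was 0.32 over 73 genes, against 0.06 between b and c. The median size of the siSOX9 log2 ratio over the same 73 genes was 0.16, and for 50 of them the gap among siCtrl libraries was the larger. Over all genes whose mean reached 10 the gap was 0.21 at the median, against 0.09 between b and c, and it exceeded the siSOX9 ratio in 7369 of 13457. The gap ran from -1.16 in NDUFA3, an accessory subunit of complex I with 2201 reads in a and 4791 and 5075 in b and c, to 0.88 in NDUFB6, with 2514 in a and 1320 and 1405 in b and c. In siSOX9, library a could be set against b to d in only the 19 genes with recovered reads. The median log2 ratio was 0.06, with 12 above and 7 below. It ran from -0.56 in ATP5J2-PTCD1 to 0.90 in NDUFB6. The labels place 1 library of each arm in experiment 2, but the tables do not say which. What part depth or experiment has in the gap was not tested.

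Compared within depth, the lean was alike. Over the 19 recovered OXPHOS genes the median log2 ratio was 0.14 between the deepest library of each arm (15 of 19 above siCtrl) and 0.09 between the other libraries (16 of 19). Over all recovered genes these medians were 0.02 and 0.00. The 2 arms were fully separated, with no overlap of libraries, in 3 of the 19 genes, NDUFA1, NDUFB1 and NDUFB3, all higher in siSOX9. That is 15.8%, against 27.9% of all recovered genes separated in either direction and 12.8% separated upwards. NDUFB3 had 2682, 2647 and 2757 normalised reads in siCtrl and 3369, 3214, 3048 and 3525 in siSOX9. By limma-voom on the recovered reads, NDUFB3 (log2 ratio 0.29, SE 0.0738, adjusted p = 0.0293) and NDUFB1 (0.29, SE 0.0809, adjusted p = 0.0424) passed among 19 tested, where 16.4% of all recovered genes passed. Both are accessory subunits of complex I, named after their values were seen. In the authors' deposited table their DESeq adjusted p-values were 0.6615 and 0.5715. With the depth class (deepest library of its arm or not) as a term of the limma-voom model, a choice made after seeing the data, 12 of the 19 passed, 10 higher and 2 lower, but so did 48.1% of the 10451 genes. NDUFA2 then had a log2 ratio of 0.41 (SE 0.0523, limma-voom adjusted p = 1.85e-07). Recovery limited the gaps between siSOX9 libraries where the siSOX9 mean was above 1200 or many sets of reads were possible, and what part that limit has in these calls was not tested.

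**Figure D2:**
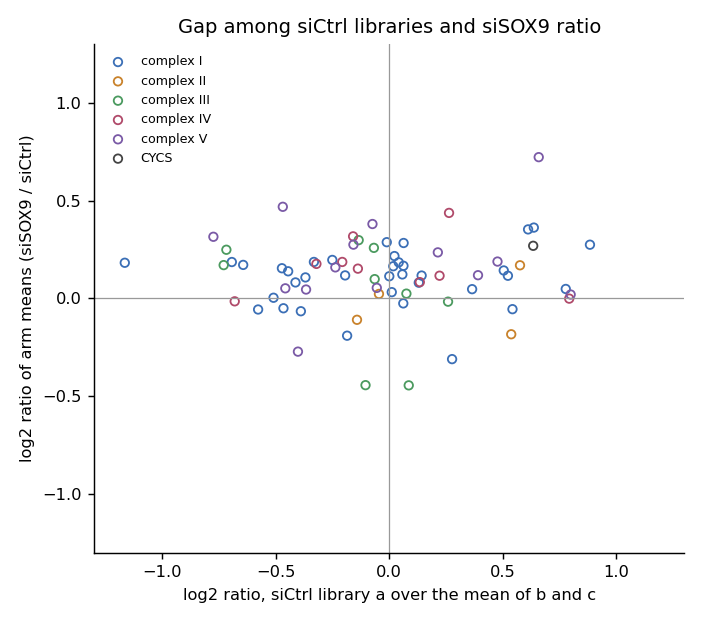
Each point is 1 of the 73 OXPHOS genes with recovered siCtrl reads; the x axis is the log2 ratio of the deepest siCtrl library over the mean of the other two and the y axis the log2 ratio of siSOX9 over siCtrl arm means. Points spread wider along x, from -1.16 to 0.88, than along y for most genes.

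In siY14 cells 5 OXPHOS genes were called, 4 higher and 1 lower, by the DESeq adjusted p of the authors' deposited table. Of all 17706 genes tested there, 9.16% were called, 3.81% higher and 5.35% lower. NDUFB7, NDUFS8, NDUFA11 and ATP5D rose and CYCS fell. The first 3 belong to complex I: NDUFS8 carries iron-sulfur clusters on the path to the quinone, and NDUFB7 and NDUFA11 are accessory subunits. ATP5D encodes the delta subunit of the ATP synthase's central stalk. At an unadjusted p under 0.05 there were 15 of 77, 13 higher and 2 lower, against 29.2% of all genes whose mean reached 10. Over the 77 genes 50 were above siCtrl and 27 below, with a median log2 ratio of 0.08, against 49.9% above and a median of 0.00 over all 13444. With the arm means scaled to the same total, which moves every log2 ratio up by 0.0689, 60 of the 77 and 56.6% of all genes were above siCtrl.

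NDUFB7 had 1419 and 1398 normalised reads in the siCtrl libraries and 2166, 3087, 2310 and 3056 in siY14 libraries a to d. Its log2 ratio in the authors' deposited table was 0.91 (DESeq adjusted p = 0.008242). NDUFA11 had 2676 and 2634 in siCtrl and 4012, 4937, 3989 and 5072 in siY14. Its log2 ratio in the authors' deposited table was 0.76 (DESeq adjusted p = 0.00135). In both genes every siY14 library was above both siCtrl libraries, and libraries b and d were above a and c.

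NDUFS8 had 2226 and 2280 normalised reads in siCtrl and 3270, 4386, 3252 and 4546 in siY14 (log2 ratio 0.78, DESeq adjusted p = 0.02214 in the authors' deposited table). ATP5D had 2197 and 2200 in siCtrl and 3230, 4499, 3223 and 4526 in siY14 (log2 ratio 0.82, DESeq adjusted p = 0.02589 in the authors' deposited table). The order of the libraries was the same as for NDUFB7 and NDUFA11, with b and d highest. By limma-voom on the recovered reads the log2 ratios were 0.89 (SE 0.187) for NDUFB7, 0.75 (SE 0.131) for NDUFA11, 0.76 (SE 0.179) for NDUFS8 and 0.79 (SE 0.19) for ATP5D, with adjusted p-values from 0.0177 to 0.0337. That model passed 9 of the 39 recovered OXPHOS genes, 7 higher and 2 lower, and 24.3% of all recovered genes. It took the siY14 libraries as independent, though they fell into close pairs, a with c and b with d. Recovery also limited the gaps within these pairs where the siY14 mean was above 1200 or many sets of reads were possible. What part either has in the siY14 limma-voom p-values was not tested.

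NDUFS7, the complex I subunit with the last iron-sulfur cluster before the quinone, had the largest ratio of the set without passing in the authors' deposited table (log2 ratio 1.53, DESeq adjusted p = 0.06349). It had 704 and 682 normalised reads in siCtrl and 1379, 2672, 1365 and 2574 in siY14, so each siY14 library was above siCtrl but b and d were nearly 1 log2 unit above a and c. Their log2 ratios over the siCtrl mean were 0.99, 1.95, 0.98 and 1.89. By limma-voom on the recovered reads its adjusted p was 0.0431.

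CYCS, the mobile carrier between complexes III and IV, had 19673 and 19266 normalised reads in the siCtrl libraries and a siY14 mean of 13971. Its log2 ratio in the authors' deposited table was -0.48 (DESeq adjusted p = 0.04649). Its siY14 libraries were not recovered. The iron-sulfur subunit NDUFS1 of complex I, the lowest of that complex, was at -0.45 (DESeq adjusted p = 0.06787 in the authors' deposited table), from siCtrl libraries of 10231 and 10344 to a siY14 mean of 7527.

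No other gene of the chain was called by DESeq in the authors' deposited table. By limma-voom on the recovered reads NDUFS7, UQCR11, NDUFB3 and the accessory subunits NDUFB11 (log2 ratio 0.48, adjusted p = 0.0273) and NDUFB4 (-0.25, adjusted p = 0.0246) passed as well, the last 2 named after their values were seen. In complex I as a whole 25 of 36 genes were above siCtrl (median log2 ratio 0.09). Complex II lay near siCtrl, from -0.15 in SDHD to 0.02 in SDHA, the flavoprotein. Complex III had 7 of 11 above siCtrl (median 0.13), from -0.08 in UQCRC2 to 0.49 in UQCR11. UQCR11, a small subunit, had 2468 and 2358 normalised reads in siCtrl and 3347, 3507, 3264 and 3446 in siY14, and unlike the 4 called genes with recovered libraries it was close to level across the siY14 libraries. Its DESeq adjusted p was 0.05966 in the authors' deposited table, and its adjusted p by limma-voom was 0.00893. Complex IV had 6 of 9 above (median 0.07). COX5B was highest at 0.40, with 2567 and 2481 in siCtrl and 2832, 3827, 2916 and 3771 in siY14. COX7C was lowest at -0.51 (DESeq adjusted p = 0.4501 in the authors' deposited table), from 13308 and 13220 in siCtrl to a mean of 9337. Complex V had 9 of 16 above (median 0.02), from -0.26 in the alpha subunit ATP5A1 to ATP5D. Without symbols that encode no subunit its median was 0.004 over 13 genes.

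The 4 siY14 libraries fell into close pairs, a with c and b with d. Over the 39 recovered genes the median size of the log2 gap was 0.04 between a and c and 0.03 between b and d, and between 0.21 and 0.23 for every pairing across. Recovery itself limited the gap within these pairs to 0.25 where the siY14 mean was above 1200 or where many sets of reads were possible. Over the 3606 genes of the table with a siY14 mean from 100 to 1200 that were recovered without that limit, the gaps were 0.06 for a and c and 0.07 for b and d, and 0.30 or 0.31 across. NDUFV3, ATP5S and UQCRHL were the 3 OXPHOS symbols among them, with gaps of 0.03 to 0.16 for a and c. Libraries b and d were both above a and c in 24 of the 39 genes and both below in 10, together 87.2%, against 83.4% of all recovered genes. The labels give 2 libraries to each of siRNA 9 and siRNA 10, but the tables do not say which libraries these are. Median log2 ratios over the siCtrl mean were 0.07, 0.16, 0.04 and 0.20 for libraries a to d. All 4 libraries were above the siCtrl mean in 19 genes and below it in 9, and 11 were split. Of all 10543 recovered genes, 3711 had all 4 above, 3601 all 4 below and 3231 were split. The 19 of 39 made 48.7%, against 35.2% of all.

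NDUFA6, an accessory subunit of complex I named after its values were seen, was the widest split. It had 3417 and 3419 normalised reads in siCtrl, 3833 and 3981 in libraries a and c, and 1781 and 1993 in b and d. Its arm mean of 2897 therefore matches no library. Counted as arms, siY14 and siCtrl were separated with no overlap of libraries in 25 of 39 genes (64.1%), against 62.5% of all recovered genes. The 17 higher made 43.6%, against 31.8%, and the 8 lower made 20.5%, against 30.8%. Among the 8 was NDUFB3, with 2866 and 2852 in siCtrl and 2406, 2154, 2389 and 2194 in siY14, which by limma-voom had a log2 ratio of -0.32 (SE 0.07, adjusted p = 0.0267).

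**Figure D3:**
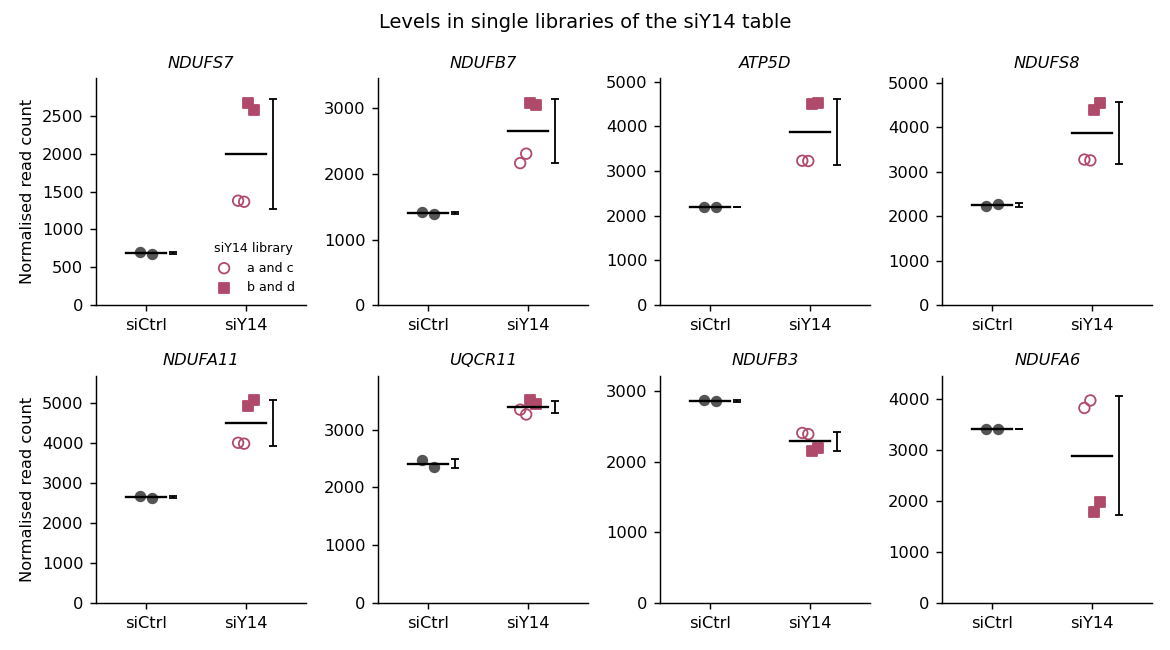
Normalised read counts (y axis, from 0) of 8 OXPHOS genes in each library of the siY14 table; grey points are the 2 siCtrl libraries, open circles siY14 libraries a and c, filled squares b and d, black lines arm means and error bars SD (n = 2 siCtrl, n = 4 siY14). In NDUFS7, NDUFB7, ATP5D, NDUFS8 and NDUFA11 the squares sit above the circles and both above siCtrl, UQCR11 has little gap between them, NDUFB3 is below siCtrl, and NDUFA6 has circles above and squares below siCtrl.

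The 4 genes called higher in siY14 cells, and NDUFS7, have a high GC content of their transcripts, which not all genes that rose share. GC was taken as the median over a gene's basic protein-coding transcripts in GENCODE 29, and all 87 members had a value. ATP5D has 69.3% GC, NDUFB7 65%, NDUFA11 62.7% and NDUFS8 62%, and NDUFS7 has 66.8%, while CYCS, which fell, has 42.4%. ATP5D, NDUFB7, NDUFA11 and NDUFS7 lie on chromosome 19 and NDUFS8 on chromosome 11. The rest of the 13 genes higher at an unadjusted DESeq p under 0.05, listed after their values were seen, spread more widely. They have 60.3% GC (ATP5J2-PTCD1), 58.9% (NDUFB11), 57.7% (UQCR11), 56.2% (ATP5SL), 54% (ATP5G1), 52% (COX5B), 51.7% (NDUFA2) and 41.7% (NDUFB6). The median siY14 log2 ratio was -0.07 for the 19 OXPHOS genes under 45% GC, -0.01 for 18 from 45 to 50%, 0.10 for 19 from 50 to 55%, 0.13 for 12 from 55 to 60% and 0.78 for 9 at 60% or more. Over all genes whose mean reached 10, the same bins had medians of -0.21, -0.06, 0.04, 0.15 and 0.40.

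All 9 OXPHOS genes at 60% GC or more were above siCtrl, and 4 of them were called. Of all 2137 genes in that range whose mean reached 10, 1762 were above siCtrl and 396 were called higher (18.5%). The other 5 were NDUFS7, ATP5J2-PTCD1 at 0.81, NDUFA13 at 0.18, CYC1 at 0.18 and NDUFV1 at 0.09. Across the 77 genes Pearson's r between GC and the siY14 log2 ratio was 0.67, and it was 0.44 across 13042 genes of the whole table. The points share their libraries, and genes are not independent replicates, so r is a description. In the 4 single siY14 libraries r was 0.637, 0.657, 0.766 and 0.691 for the 39 recovered genes. In siSOX9 cells r was -0.12 over 76 genes, and the median log2 ratios fell over the first 4 GC bins from 0.17 to 0.14, 0.11 and 0.08, with 0.12 in the last. Within depth r differed in sign over the 19 recovered genes, at -0.578 between the deepest libraries and 0.217 between the others. The log2 ratio of siCtrl library a over b and c had an r of -0.318 with GC over 73 genes. Transcript length gave r of -0.07 for siY14 and 0.08 for siSOX9. The part that base composition has in the siY14 ratios was not tested.

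**Figure D4:**
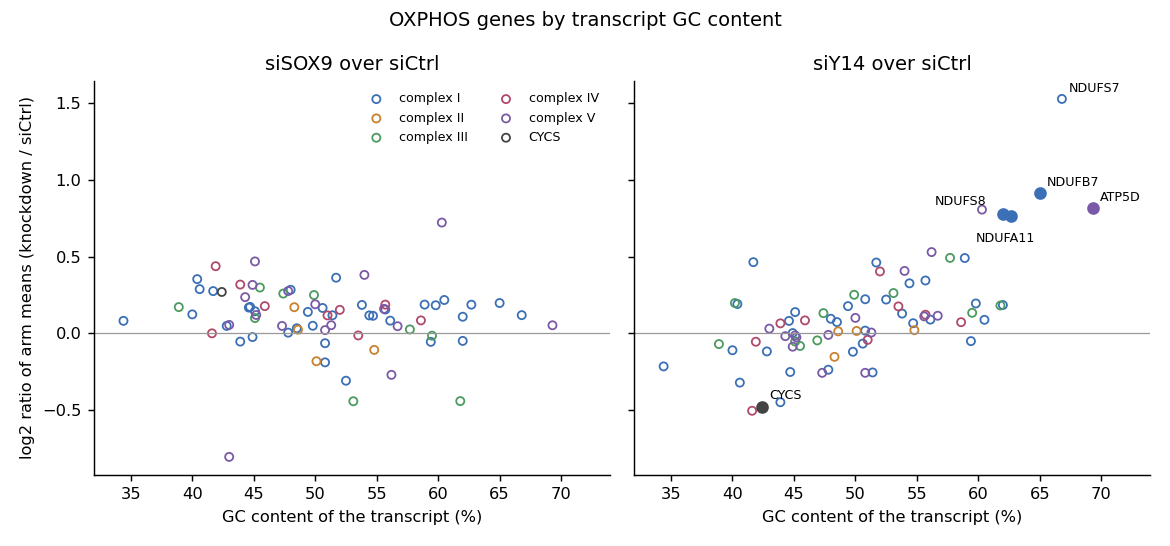
Each point is 1 OXPHOS gene whose mean reached 10; the x axis is the GC content of its transcript in percent and the y axis the log2 ratio of the arm means, coloured by complex, with filled points for genes called in the authors' deposited table. In siY14 the points climb with GC to 1.53 in NDUFS7 (66.8% GC), while in siSOX9 the GC bin medians stay between 0.08 and 0.17.

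Among the 75 genes whose mean reached 10 in both tables, the ratio of the siCtrl mean beside siY14 to that beside siSOX9 was lowest in the same GC-rich genes, from 0.195 in NDUFS7 to 0.367 in NDUFS8. The siCtrl mean beside siY14 also enters the siY14 log2 ratio by which these genes were picked. A low value of it thus raises 1 ratio and lowers the other, and CYCS is tied in the opposite way. Next was COX5B at 0.373, with 52% GC. The other members at 60% GC or more had 0.636 (NDUFA13), 0.744 (CYC1), 0.794 (NDUFV1) and 1.42 (ATP5J2-PTCD1). The tables were normalised separately and come from different experiments. NDUFS7 had a siCtrl mean of 3559 beside siSOX9 and 693 beside siY14, and its siY14 mean was 1998. For ATP5D these means were 8107, 2199 and 3869, and for NDUFB7 4620, 1408 and 2655. NDUFA11 had 7236, 2655 and 4503, and NDUFS8 had 6133, 2253 and 3863. In each of these 5 genes, the siY14 mean lay between the 2 siCtrl means. CYCS was the other way round, with 11755, 19469 and 13971. No test was made across the tables.

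Per kilobase of transcript, ATP5B had the highest siCtrl level of the siY14 table, 44967 normalised reads, followed by ATP5A1 at 26251 and the c-ring subunit ATP5G3 at 21579. In the siSOX9 table COX6A1 was highest at 34782, followed by ATP5B at 30996. Within the siY14 table the 4 genes called higher had siCtrl levels per kilobase of 3939 (NDUFS8), 3123 (ATP5D), 2652 (NDUFB7) and 1233 (NDUFA11). NDUFS7 had 667.

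Several symbols of the set had few or no reads. ATP5E, ATP5J2, ATP5L2, COX6A2, COX8C and NDUFC2 were listed at 0 in both tables. ATP5E, ATP5J2 and NDUFC2 overlap the read-through genes SLMO2-ATP5E, ATP5J2-PTCD1 and NDUFC2-KCTD14, and whether reads of shared exons were counted was not tested, so a listed 0 is not a measure of their expression. ATP5J2-PTCD1 had a mean of 34.3 over both arms with siSOX9 and of 53.3 with siY14. COX6B2, COX7A1 and COX7B2, forms of complex IV subunits made in other tissues such as testis or heart and muscle, stayed under a mean of 10 in both. The retrocopy UQCRHL had a mean of 6.58 with siSOX9 and 386 with siY14, and the pseudogene UQCRBP1 had 0.324 and 23.1, while ATP5EP2 had 41.1 and 5.57. The parent genes UQCRH, with 11396 and 11994, and UQCRB, with 10629 and 8051, had like means in both, while ATP5E was listed at 0. These copies share sequence with their parent genes, so their counts are uncertain.

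Of the other genes of the pathway, taken from lists of subunits, assembly factors, regulators and cycle enzymes, none had a DESeq adjusted p of at most 0.05 for siSOX9 in the authors' deposited table. For siSOX9, 3 of 96 had an unadjusted p under 0.05, against 13.6% of all genes whose mean reached 10. In siY14 cells, the authors' deposited table called 5 of these 96 genes higher and 6 lower, together 11.5%, against 9.16% of all genes tested. At an unadjusted p under 0.05 there were 25 of the 96 (26%), against 29.2% of all genes whose mean reached 10. The 96 count every symbol of the lists, also those under that mean. Among them COX16, MTERF and PPARGC1A had no p-value with siY14, so these shares have unlike bases. Of the assembly factors, ECSIT of complex I (log2 ratio 0.76, adjusted p = 0.04873), BCS1L, which inserts the Rieske protein into complex III (0.59, adjusted p = 0.01863), and SCO2, a copper chaperone of complex IV (0.97, adjusted p = 0.01306), rose. LYRM7, another complex III factor, fell by 0.92 on the log2 scale (DESeq adjusted p = 0.005057), COX20 by 0.73 and COX11 by 0.51. Of 18 regulators of mitochondrial gene expression whose mean reached 10, ESRRA rose by 0.74 and POLRMT, the mitochondrial RNA polymerase, by 0.64, while GABPA fell by 0.60. Of 19 tricarboxylic acid cycle enzymes, DLD fell by 0.76 and FH by 0.63. GC content was 61.8% in ECSIT, 64.9% in SCO2, 64% in ESRRA and 66.3% in POLRMT, 55.1% in BCS1L, and from 35.7 to 45.4% in the 6 that fell. Of subunits that the symbol rule leaves out, COX4I1 had a siY14 log2 ratio of 0.18, COX7A2L 0.24 and NDUFAB1 0.23, none of which passed, and COX4I2 had a mean under 1 in either arm.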

How the data were processed

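Poly(A) RNA of 13 DLD-1 samples was sequenced with a stranded kit, per the labels' protocols; the sources used here do not say whether counting used strand. The submitters' processing notes name TopHat2, Bowtie, HISAT2, SAMtools, HTSeq, DESeq and hg19, without role or order. The authors deposited 1 table for each knockdown. The authors normalised the reads per library and averaged them per arm, and this mean is the signal of each arm. The authors computed the ratio and the log2 ratio of the arm means, and p-values with DESeq, per the file headers and the processing notes. The deposited log2 ratio equals that of the arm means.

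Members and lists were chosen with earlier results of these data known. The main test was the authors' DESeq adjusted p at 0.05 over all genes. Ratios were described where the mean reached 10. Members named in the text passed that threshold, were highest or lowest in ratio or mean in a complex, or had a mean under 10. Others are said to have been named after their values were seen, and 1 gene that the rule would name is not reported here.

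Whole reads per library were recovered from the 15 printed digits of each arm mean. Except at low means, the search kept to a set range around the arm mean, in siCtrl arms too. On simulated means, 887 of 1000 were recovered for siSOX9 (1 wrong) and 938 for siY14 (0 wrong). The simulation left out genes of the highest means, so these shares do not carry over to the OXPHOS genes. Of those, both arms were recovered for 19 of 76 and 39 of 77. Of 1000 means shifted off their true value, 31 and 20 were still accepted. Above a mean of 1200 and where many sets of reads were possible, limits on the gaps between knockdown libraries, chosen after seeing recovered genes, were added (0.45 on the log2 scale among siSOX9 b to d, 0.25 within siY14 pairs). Both arms were recovered for 76.6% (siSOX9) and 78.4% (siY14) of genes whose mean reached 10. They were tested with limma-voom (limma 3.58.1, R 4.3.3), tested on simulated data. For siY14, 88 of 100 genes changed 2-fold were recovered in 10543 genes. The simulated libraries were drawn independently, without the close pairs of the siY14 libraries. The simulation therefore does not show how the model behaves with such pairs. Tables were read in Python 3.11.15.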

Additional observations from a re-analysis of the deposited data

Results flagged for a closer look

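In the siSOX9 table, 3 of the 19 OXPHOS genes with recovered reads had 1 siSOX9 library far from the other 3, by the ratio of its gap to the whole range (Dixon's ratio, past its 95% critical value). About 1 in 20 groups exceeds it by chance. ATP5J2-PTCD1 had 69.1 normalised reads in library c and 30.5, 32.1 and 33.2 in a, b and d (ratio 0.931). NDUFB2 had 2918 in library a and 1665, 1538 and 1608 in b to d (0.908), and its siCtrl library a was likewise high, with 2587 against 1487 and 1532. ATP5S had 887 in library a and 463, 455 and 518 in the others (0.854). With siY14, 0 of 39 genes exceeded the critical value. Recovery limited gaps to 0.25 on the log2 scale within siY14 pairs and to 0.45 among siSOX9 libraries b to d. These limits held where the knockdown mean was above 1200 or many sets of reads were possible. They bear on the same gaps that the ratio measures, so neither count is comparable with the share by chance. The 0 of 39 is therefore no sign that the siY14 libraries lack outliers. What part the limits have in these counts was not tested.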

How the results depend on the processing

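Of the 125 alternatives run, 111 kept the direction and stayed within the limits set. For medians the limit was 1 SD of the library medians (0.112 for siSOX9, 0.0759 for siY14). That is about as large as the medians over all OXPHOS genes. It is wider than small ones, such as 0.02 for siY14 complex V, so staying within it says little about them. In these runs the medians kept their sign, and 14 values moved over 1.5 times. The siY14 median of 0.08 became 0.15 with arms scaled to the same total, which also moved every complex, and 0.12 over the recovered genes (0.09 with all libraries) without siCtrl library b, siY14 a or siY14 c. Its complex V median of 0.02 became 0.00 with no minimum mean, with a mean of at least 100 or without symbols that encode no subunit. The siSOX9 median of 0.12 became 0.18 over the recovered genes without siCtrl library a, and its complex III median of 0.10 became 0.17 with no minimum mean. The number of OXPHOS genes called in siY14 (5) was 2 at an adjusted p of 0.01 and 10 at 0.1. It was 8 when p-values were adjusted over genes whose mean reached 10, and 9 where it reached 100. By limma-voom it was 9 of 39 recovered genes, where 24.3% of all genes passed. Leaving out 1 library at a time gave 0 to 12: 0 without either siCtrl library, where 1 of 10543 genes passed in all, 12 without siY14 library a, 3 without b, 10 without c and 4 without d. For siSOX9 limma-voom called 2 of 19, and 0 to 2 with 1 library left out, 0 without any 1 siCtrl library, b or d, 1 without library a and 2 without c. No paired analysis was possible because the columns carry no replicate numbers. With the depth class as a term, chosen after seeing the data, 12 of 19 passed, and 48.1% of all genes did. The siY14 tests rest on 2 siCtrl libraries, and most highly expressed members have no values per library.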
